A study of Canis lupus familiaris with 25 samples.

Results

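The interleukin 15, 7, 6 and 34 cytokine genes are a group of 10 genes of cytokine signaling, chosen by name from the 24532 genes of the count table, and all 10 were found there: IL15, IL15RA, IL7, IL6, IL6R, IL6ST, LIF, OSMR, CSF1 and IL34. They were described over 25 QuantSeq 3′ libraries of archived, formalin-fixed and paraffin-embedded (FFPE) tumors of pet dogs, a method that sequences a short fragment near the 3′ end of each polyadenylated RNA. Of these, 10 were hepatoid gland adenomas (HGA, a benign tumor of the perianal hepatoid glands, dogs 8 to 14 years old), 11 were primary adenocarcinomas of the apocrine glands of the anal sac (AGASAC, malignant tumors of the same region, dogs 8 to 12.5 years old), and 4 were sublumbal lymph node metastases from the dogs of AGASAC 1 to 4 (8 to 10 years old). The dogs were of many breeds, and 4 of the 10 dogs with HGA were intact males while 0 of the 11 dogs with AGASAC were, so tumor type and this status cannot be told apart fully. Every sample was a spontaneous tumor of a privately owned dog with the adjacent tissue trimmed away, and the labels give no treatment and no normal gland.

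IL15 is a cytokine that sustains natural killer (NK) cells and memory T cells. It is presented on the cell surface by IL15RA to neighboring cells that carry IL2RB and the common gamma chain IL2RG. IL7 sustains lymphocytes through IL7R and the same common chain. IL6, LIF and oncostatin M signal through receptors that share IL6ST, also called gp130. IL6R binds IL6, and OSMR pairs with IL6ST to bind oncostatin M. CSF1 and IL34 are ligands of CSF1R, the receptor on which macrophages depend. Interleukin and gp130 receptors signal through JAK kinases and STAT factors, while CSF1R is itself a tyrosine kinase.

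Library depth ranged from 1562347 to 6389555 gene counts in HGA, from 2581453 to 4218340 in primary AGASAC and from 2857541 to 3289546 in the metastases. Values of single libraries are counts scaled to library size (CPM) with TMM factors over all 25 libraries. A count of 0 in a library allows up to 3 counts, which corresponds to 0.543 to 1.84 CPM, and such limits cover counting error only. The labels were checked against epithelial markers. The summed level of KRT8, KRT18, KRT19 and PIP ran from 0 to 34.2 CPM in HGA and from 3364 to 8571 CPM in primary AGASAC. The summed level of KRT5, KRT14, KRT79 and CIDEA ran from 4411 to 17240 CPM in HGA and from 0 to 23.6 CPM in primary AGASAC, where KRT79 was at 0 in every library. HGA 4 had the fewest genes detected, 14041, and HGA 10 was alone in its extraction batch. Both were kept, and values without them are given where they matter.

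IL15, IL6R, IL6ST and CSF1 were lower in HGA than in primary AGASAC, whereas IL34, IL15RA and OSMR had overlapping ranges in both tumors and did not pass the test. IL6, IL7 and LIF had too few counts to be tested. The log2FC is the log2 fold change of HGA relative to AGASAC, and a gene was called where it reached 1 in size with an adjusted p no higher than 0.05. By this rule 4 of the 10 genes, or 4 of the 7 that could be tested, were called, all lower in HGA. Of the 12070 genes tested 25.1% were called, 12.5% being lower in HGA. Without a filter on low counts the call held for the same 4 of 10 genes, with 16.2% of 24332 genes called and 8.39% called lower in HGA. In bulk tumor RNA, fewer cells of a type and less RNA per cell cannot be told apart.

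**Figure D1:**
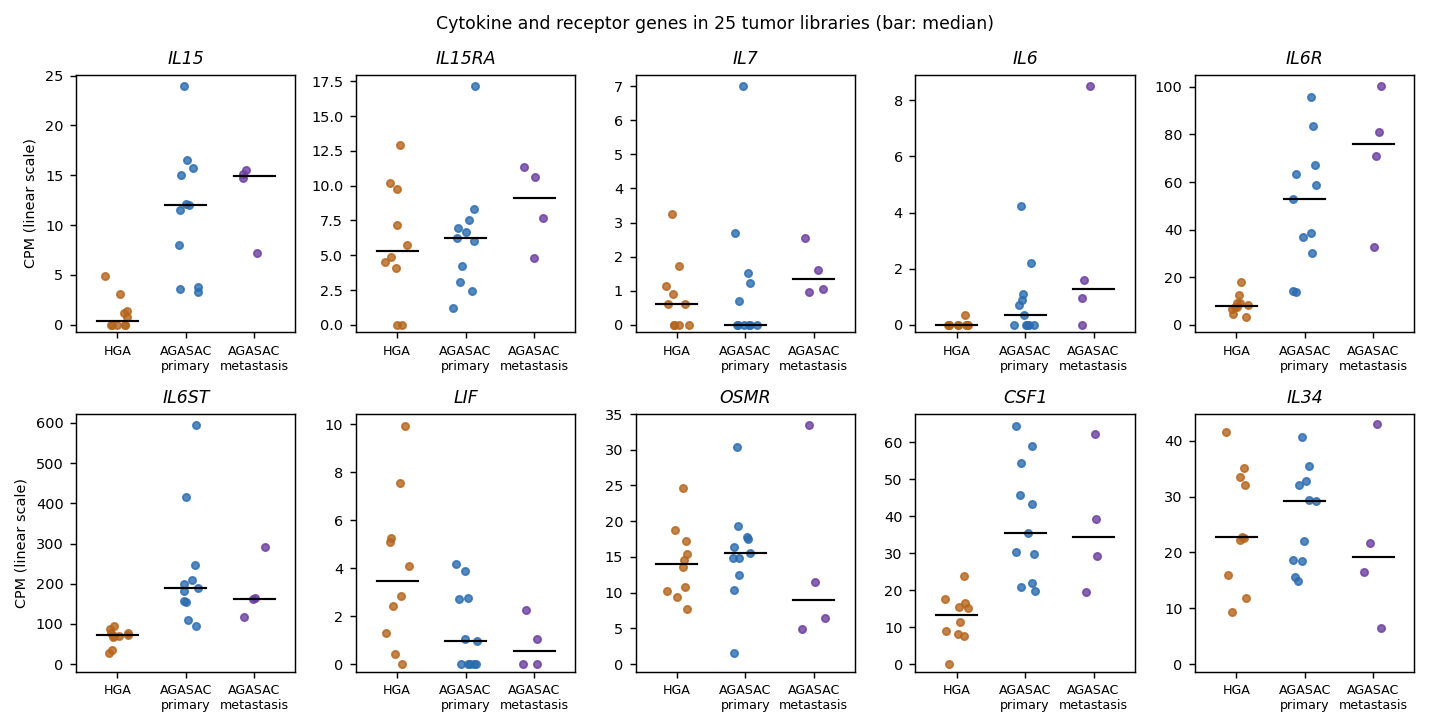
CPM (linear vertical axis, a separate scale for each gene) of the 10 genes in each of 10 HGA, 11 primary AGASAC and 4 metastasis libraries; each point is a library and each bar the group's median. IL6ST is the gene whose HGA points all lie below every AGASAC point, while the points of IL34 and OSMR overlap widely between the tumors.

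IL15 was close to absent in HGA. Its lowest, median and highest values over the 10 HGA were 0, 0.408 and 4.86 CPM, with 5 libraries at 0 counts and 7 at or under 3 counts. In the 11 primary AGASAC these values were 3.26, 12.0 and 23.9 CPM, and no library was at or under 3 counts. The groups overlapped through HGA 7 alone: 9 of 10 HGA lay below the lowest AGASAC. The mean was 1.12 ± 1.64 CPM (SD, n = 10) in HGA and 11.4 ± 6.42 CPM (SD, n = 11) in AGASAC, a log2FC of −3.14 (SE 0.62), or 8.81-fold lower in HGA (edgeR quasi-likelihood test, adjusted p = 0.00223). IL15 passed the filter on low counts through its AGASAC libraries, since 1 of 10 HGA and 10 of 11 AGASAC reached the level that the filter asks of 10 libraries, so a gene of this kind could enter the test only by being higher there. Leaving out AGASAC 1, 3, 4, 9 or 11 took it below the filter, and it was called in 16 of the 16 other fits that left out a library.

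IL15RA, the chain that presents IL15, was not called. It ran from 0 over a median of 5.28 to 12.9 CPM in HGA and from 1.19 over 6.25 to 17.1 CPM in primary AGASAC. The ranges lay on top of each other, with a log2FC of −0.06 (SE 0.53, adjusted p = 1). Within single libraries, the log2 ratio of IL15 counts to IL15RA counts, with 0.5 added to each, had a median of −1.85 in HGA, where it exceeded 0 in 0 of 10. In primary AGASAC the median was 1.104 and it exceeded 0 in 8 of 11. Both genes are read from the same library in this ratio, so it needs no scaling between libraries. Where a gene is at 0 counts, the ratio depends on depth through the added 0.5. IL15 was at 0 counts in 5 of 10 HGA. In HGA 5 and HGA 10 IL15RA was at 0 as well, so their ratio of 0 comes from the added 0.5 alone.

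IL7 was near the detection limit in both tumors. It ran from 0 to 3.24 CPM in HGA, with 4 of 10 libraries at 0, and from 0 to 6.99 CPM in primary AGASAC, with 6 of 11 at 0. In 7 of 10 HGA and 7 of 11 AGASAC it stood at or under 3 counts. A difference was not detectable at this depth (without a filter, log2FC −0.54, adjusted p = 1).

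The receiving chains of these cytokines were also sparse. Of 13 other genes listed for the common gamma chain family, 10 were in the table and 1, IL4R, could be tested in HGA versus AGASAC; it was not called (log2FC 0.81, adjusted p = 1), against the 25.1% of all genes tested that were. IL2RB, the signaling chain for IL15, had a median of 0 CPM in HGA, with 8 of 10 libraries at 0, and of 2.37 CPM in primary AGASAC, and without a filter it did not pass (adjusted p = 0.223). IL2RG had medians of 2.196 CPM in HGA and 1.63 CPM in AGASAC, and IL7R of 1.75 and 3.01 CPM. JAK3, the kinase that partners the common gamma chain, had medians of 0.416 CPM in HGA and 0.890 CPM in AGASAC and could not be tested. IL2RA, the high-affinity chain for interleukin 2, was named after its values were seen. It was at or under 3 counts in 10 of 10 HGA, but ran from 0 to 73.5 CPM in primary AGASAC with a median of 1.21 CPM (without a filter, adjusted p = 0.000616).

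T cell and NK cell markers had a lower summed level in HGA, but none was called: of the 7 markers 2 could be tested, CD2 (log2FC −1.53, adjusted p = 0.343) and LCK (log2FC −1.18, adjusted p = 1), and the groups overlapped for all 7. The summed level of CD3D, CD3E, CD3G, CD2, CD5, LCK and NKG7 had a median of 8.50 CPM in HGA (2.45 to 48.9) and of 25.9 CPM in primary AGASAC (17.3 to 121), with none of the 7 markers at 0 throughout a group. Over the 21 primary tumors, after the mean of each tumor type was subtracted, the correlation of IL15 with this sum was 0.088 on the log2 scale. For the other 6 genes tested it ran from 0.024 for IL15RA to 0.638 for IL34. With the macrophage sum the correlations of the 7 genes ran from 0.020 for IL15RA to 0.475 for OSMR and 0.588 for IL34, and with the fibroblast sum from −0.170 for IL15RA to 0.476 for OSMR. These are descriptions over libraries that share batches and depth differences. The part of these cells in the difference of IL15 was not tested.

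Among the gp130 ligands, IL6 itself was hardly detected in HGA. HGA 1, the deepest library, had 2 counts (0.362 CPM) and the other 9 HGA had 0. In primary AGASAC it ran from 0 over a median of 0.335 to 4.24 CPM, and 8 of 11 libraries were at or under 3 counts. The highest AGASAC was number 10, with 13 counts. No fold is given, because HGA was at or under 3 counts throughout; without a filter the adjusted p was 0.163. LIF, a cytokine that acts through LIFR and IL6ST, had the higher median in HGA. It ran from 0 over 3.47 to 9.94 CPM in HGA and from 0 over 0.979 to 4.17 CPM in primary AGASAC. The groups overlapped, and the fit without a filter gave a log2FC of 1.39 (p = 0.101, adjusted p = 1 by edgeR).

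IL6R, the chain that binds IL6, was 5.66-fold lower in HGA. It ran from 3.24 over a median of 7.96 to 18.1 CPM in HGA and from 13.7 over 52.7 to 95.8 CPM in primary AGASAC. HGA 8, the highest HGA, lay above the lowest AGASAC libraries, AGASAC 8 and 11, and the other 9 HGA lay below all of AGASAC. The means were 8.63 ± 4.17 CPM (SD, n = 10) and 50.5 ± 26.6 CPM (SD, n = 11), with a log2FC of −2.50 (SE 0.34, adjusted p = 2.26e-05). It was called in each of the 21 fits that left out a library, with a log2FC of −2.69 to −2.38.

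IL6ST, the shared signal-transducing chain, was 3.36-fold lower in HGA. It ran from 27.1 over a median of 71.9 to 94.7 CPM in HGA and from 95.7 over 188 to 594 CPM in primary AGASAC. The ranges met closely but did not overlap. Of the 10 genes it was the only one without overlap, while 4.76% of all genes tested were lower in HGA without overlap and 9.13% were without overlap in either direction. The means were 68.1 ± 20.97 CPM (SD, n = 10) and 232 ± 147 CPM (SD, n = 11), with a log2FC of −1.75 (SE 0.29, adjusted p = 0.000335). AGASAC 4 and 5, at 416 and 594 CPM, were the highest libraries, and leaving out any library kept the log2FC between −1.83 and −1.50 with the call intact.

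OSMR, the chain that pairs with IL6ST for oncostatin M, was not called. It ran from 7.76 over 14.1 to 24.6 CPM in HGA and from 1.51 over 15.5 to 30.4 CPM in primary AGASAC. The lowest of all 25 libraries was the primary AGASAC of dog 1, and the highest of the primary tumors was that of dog 10. The log2FC was −0.10 (SE 0.31, adjusted p = 1). Within libraries, the log2 ratio of IL6R to OSMR counts was above 0 in 1 of 10 HGA, with a median of −0.67, and in 10 of 11 primary AGASAC, with a median of 1.46.

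Of 14 other genes listed for the gp130 family, 13 were in the table, 4 could be tested, 2 were called lower in HGA and 0 higher, where 25.1% of all genes tested were called and 12.5% lower in HGA. LIFR, the receptor of LIF, ran from 0.615 over 2.94 to 7.23 CPM in HGA and from 7.34 over 14.6 to 45.2 CPM in primary AGASAC, without overlap (log2FC −2.43, SE 0.43, adjusted p = 0.000597). It too reached the filter mainly through AGASAC, with 4 of 10 HGA and 11 of 11 AGASAC at the level asked. IL11RA, the receptor of interleukin 11, was lower in HGA with a log2FC of −1.54 (SE 0.42, adjusted p = 0.0411), but its call was lost without any of AGASAC 1, 5, 6, 10 or 11 or any of HGA 1, 4, 5, 6, 7, 8 or 9, in 12 of the 21 fits, with adjusted p from 0.0191 to 0.103 over all 21. OSM, the ligand of OSMR, was at or under 3 counts in 9 of 10 HGA and 9 of 11 AGASAC. CNTF and CTF1, the other listed ligands tested, were not called. CNTFR, a listed gene named after its values were seen, did not reach the filter. It was at 0 counts in 11 of 11 primary AGASAC and at or under 3 counts in 8 of 10 HGA. By edgeR without a filter it was higher in HGA (adjusted p = 0.0370).

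Of the 2 ligands of CSF1R, CSF1 was called and IL34 was not. CSF1 was 3.02-fold lower in HGA, running from 0 over a median of 13.2 to 23.98 CPM against 19.9 over 35.6 to 64.5 CPM in primary AGASAC. HGA 4 was the library at 0, and HGA 7, the highest, was the HGA that overlapped with AGASAC. The means were 12.5 ± 6.71 CPM (SD, n = 10) and 38.7 ± 15.9 CPM (SD, n = 11), with a log2FC of −1.59 (SE 0.37, adjusted p = 0.0103). The call held in each of the 21 fits without a library (log2FC −1.74 to −1.45) and without HGA 4 and HGA 10 together. It was lost with the archive's naming series as a term, in a fit without AGASAC 4, whose series is not known (log2FC −1.58, SE 0.49, adjusted p = 0.164), while leaving out AGASAC 4 alone kept it (adjusted p = 0.0149). It was also lost when AGASAC 2, 4 and 5, the primary tumors with the highest skeletal muscle sums, were left out together (log2FC −1.51, adjusted p = 0.0618), a choice made after the values were seen. The skeletal muscle sum (ACTA1, CKM, MYH7, TNNT1 and MYLPF) ran from 8.26 over 100.3 to 811 CPM in primary AGASAC and from 1.27 over 4.41 to 29.2 CPM in HGA, and its part in the difference was not tested.

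IL34 ran from 9.39 over 22.7 to 41.6 CPM in HGA and from 14.8 over 29.2 to 40.7 CPM in primary AGASAC. Its groups covered nearly the same range, with a log2FC of −0.07 (SE 0.26, adjusted p = 1) and means of 24.7 ± 10.6 and 26.3 ± 8.76 CPM (SD, n = 10 and 11). The log2 ratio of CSF1 to IL34 counts was above 0 in 3 of 10 HGA, with a median of −0.93, and in 10 of 11 primary AGASAC, with a median of 0.48. A difference between the 2 genes in their response to tumor type was not tested by itself.

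A list of 10 genes held CSF1R, SDC1, PTPRZ1, the myeloid genes SPI1 and TYROBP, and the related colony-stimulating factors CSF2 and CSF3 with their receptor genes CSF2RA, CSF2RB and CSF3R. All 10 were in the table, 5 could be tested, 1 was called higher in HGA and 0 lower, against 25.1% of all genes tested that were called. CSF1R itself ran from 6.88 over 27.8 to 71.6 CPM in HGA and from 17.7 over 45.6 to 64.1 CPM in primary AGASAC, and was not called (log2FC −0.31, SE 0.34, adjusted p = 1). The gene called was SDC1, a syndecan of epithelial cells that is also known as a binding partner of IL34. It ran from 209 over 436 to 797 CPM in HGA and from 4.22 over 10.1 to 34.6 CPM in primary AGASAC, a log2FC of 5.23 (SE 0.35, adjusted p = 4.78e-10). PTPRZ1, another receptor of IL34, was at or under 3 counts in 9 of 10 HGA and 6 of 11 AGASAC and could not be tested. The macrophage marker sum (CD68, CD163, AIF1, C1QA, C1QB, C1QC and MSR1) had a median of 167 CPM in HGA (79.3 to 267) and of 284 CPM in AGASAC (161 to 452). All 7 markers could be tested and 1 was called, C1QB, lower in HGA (log2FC −1.26, adjusted p = 0.00865), against 25.1% of all genes tested. CD68 had a log2FC of 0.02. The part of macrophages in the difference of CSF1 was not tested.

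**Figure D2:**
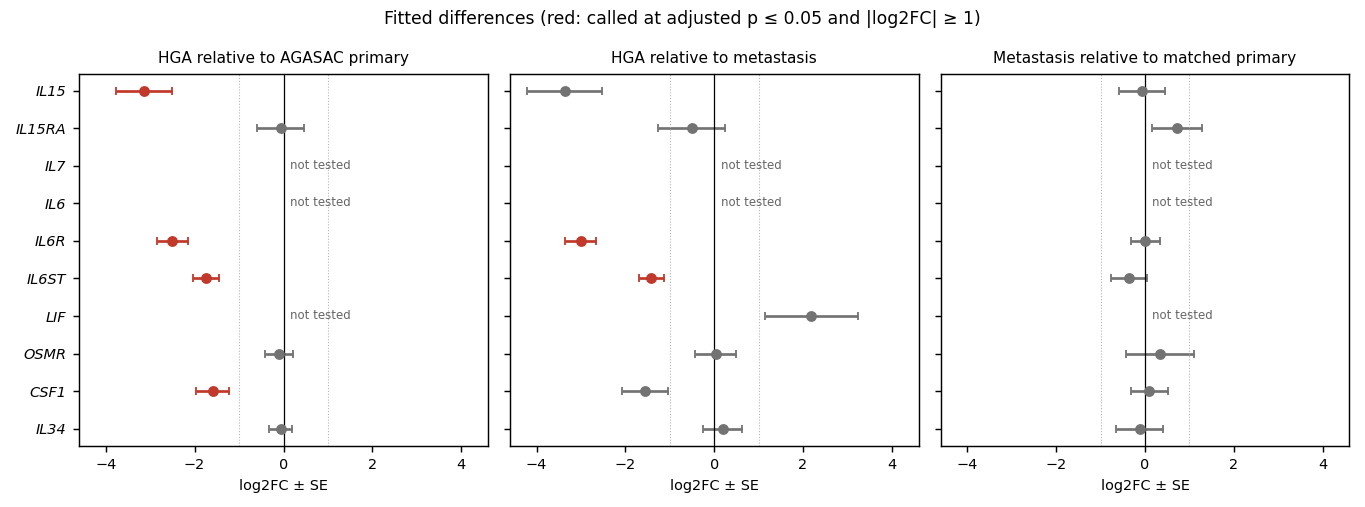
log2FC with its SE (horizontal axis) of the 10 genes in each of the 3 comparisons; red points were called and gray points were tested but not called. IL6R and IL6ST are red in both comparisons with HGA, which share the HGA libraries, and no gene is red between metastases and matched primary tumors.

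The direction of the 4 called genes was the same within each extraction batch that held at least 2 libraries of each tumor. Extraction batch and naming series are those of the study's sample lists. Within batches 5, 6 and 8, with 2 to 3 libraries per tumor, the log2FC of IL6R was −2.09, −2.75 and −2.90, that of IL6ST −1.95, −1.97 and −2.10, and that of CSF1 −1.94, −2.15 and −0.90. For IL15 it was −3.53 in batch 6 and −1.84 in batch 8. In batch 5 all 3 HGA had 0 IL15 counts, so AGASAC was at least 6.31-fold higher there, taking 3 counts per HGA library as the limit. In these batches 0 of the 10 genes were called (adjusted p 0.0878 to 1 for the 4 genes), where 2.12%, 4.84% and 2.46% of all genes tested were called in batches 5, 6 and 8. The archive's naming series were uneven over the tumors: series A held 9 HGA and 3 primary AGASAC, series B held 1 and 7, and the series of AGASAC 4 is not known. Within series A, where 16.1% of all genes tested were called, IL6R (log2FC −3.09, adjusted p = 0.000146) and IL6ST (−1.35, adjusted p = 0.0212) were called, while IL15 (−2.86, adjusted p = 0.327) and CSF1 (−1.41, adjusted p = 0.824) kept their direction only.

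**Figure D3:**
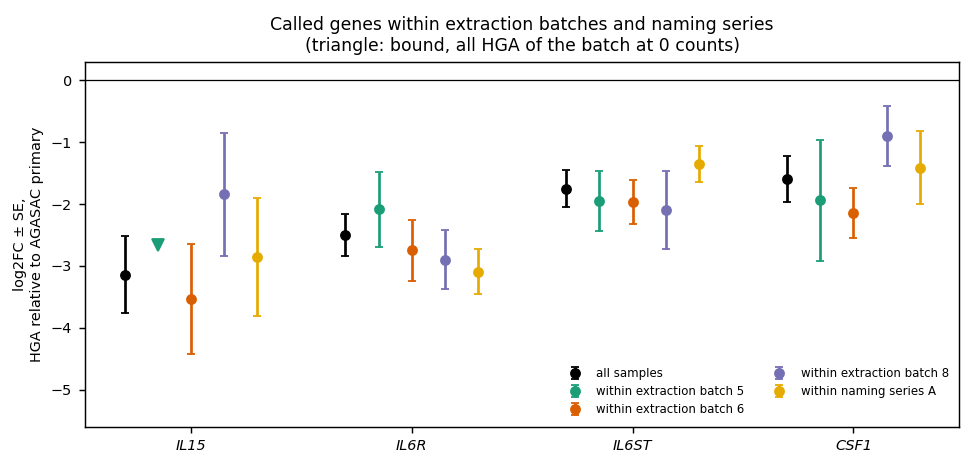
log2FC of HGA relative to primary AGASAC with its SE (vertical axis) for the 4 called genes over all 21 primary tumors and within extraction batches 5, 6 and 8 and naming series A; the triangle marks a bound against 3 counts per library. All points lie below 0, which was largely set by picking genes called over the same libraries. IL15 varies more between batches than IL6R or IL6ST.

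Downstream of these receptors, JAK and STAT genes moved in both directions. Of 11 listed, 10 were in the table, 9 could be tested, 2 were called higher in HGA and 2 lower, against 25.1% of all genes tested that were called. JAK2, a kinase used by gp130 receptors, ran from 45.6 over 137 to 404 CPM in HGA and from 15.4 over 32.0 to 47.4 CPM in primary AGASAC (log2FC 2.55, SE 0.34, adjusted p = 1.42e-05). STAT5A, a factor downstream of IL7 and IL15 receptors, was higher in HGA with a log2FC of 2.17 (SE 0.30, adjusted p = 2.86e-05). STAT2, a factor of interferon signaling, was lower in HGA, with a log2FC of −1.50 (SE 0.15, adjusted p = 3.29e-07). It ran from 26.3 to 42.5 CPM in HGA and from 71.3 to 143 CPM in AGASAC, without overlap. STAT3, the main factor downstream of IL6ST, had medians of 199 and 261 CPM and was not called (log2FC −0.19, SE 0.19). JAK1 (log2FC −0.36) and TYK2 (log2FC −0.21) were not called either (adjusted p = 1 for all 3).

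Of 16 listed feedback regulators and known target genes of STAT3 or STAT5, 15 were in the table, 14 could be tested, 2 were called higher in HGA and 2 lower, again against 25.1% of all genes. PIM1, a kinase gene induced by STAT factors, was at or under 3 counts in 9 of 10 HGA, with a highest value of 2.53 CPM, and ran from 3.92 over 9.48 to 18.4 CPM in primary AGASAC (log2FC −3.59, SE 0.53, adjusted p = 5.62e-05). It passed the filter through AGASAC alone, 0 of 10 HGA and 11 of 11 AGASAC being at the level asked, so it could enter the test only by being higher there; without a filter the log2FC was −3.68 (adjusted p = 0.000215). CEBPB, a transcription factor of the IL6 response, ran from 384 over 703 to 808 CPM in HGA and from 38.8 over 82.0 to 141 CPM in AGASAC (log2FC 3.04, SE 0.22, adjusted p = 1.21e-09). The feedback inhibitor SOCS3 was lower in HGA (log2FC −1.26, SE 0.35, adjusted p = 0.0434) and SOCS1 higher (log2FC 2.21, SE 0.57, adjusted p = 0.0255). The SOCS3 call was lost in 11 of 21 fits without a library (AGASAC 4, 5, 6, 8 or 11, or HGA 2, 3, 5, 7, 9 or 10, adjusted p 0.0249 to 0.102 over all 21). The SOCS1 call was lost in 3 of 21 (HGA 7, 9 or 10, adjusted p 0.00374 to 0.0573), and its log2FC was −0.03 within batch 6. The median log2FC of the 14 genes was 0.08, against −0.03 over all genes tested.

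**Figure D4:**
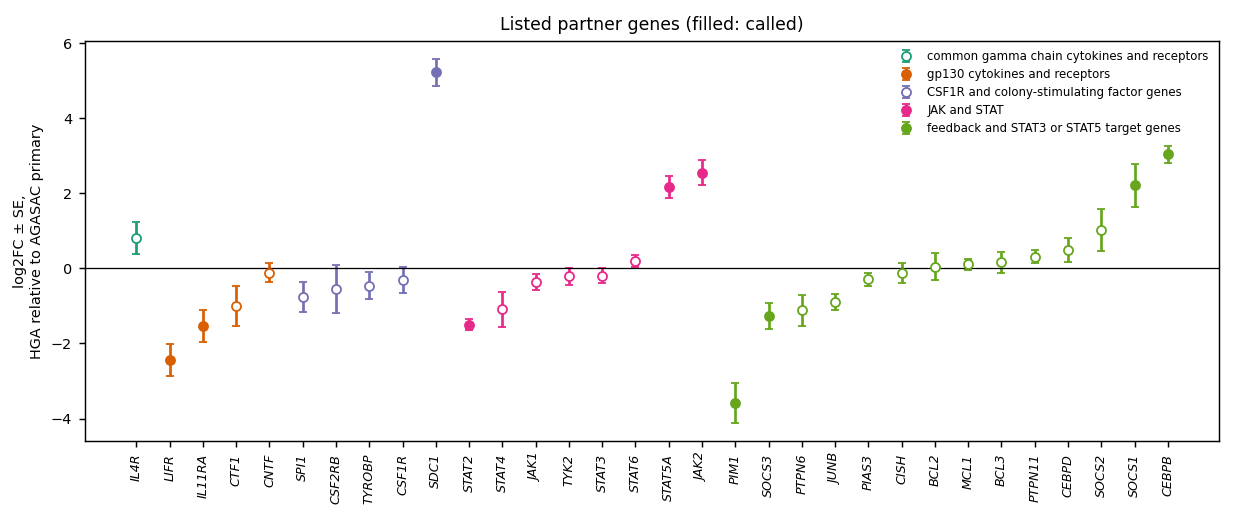
log2FC of HGA relative to primary AGASAC with its SE (vertical axis) for listed partner and downstream genes that could be tested, not all of which are drawn, colored by list, with filled points for called genes. Called points lie on both sides of 0 in the JAK and STAT list and in the feedback and target list, and SDC1 lies highest at 5.23.

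The metastases were compared with the same HGA libraries, so this comparison is not independent of the one above. IL6R and IL6ST were called lower in HGA, 2 of the 10 genes and 2 of the 8 that could be tested. Of 13195 genes tested 16.1% were called and 7.69% were called lower in HGA. IL6R measured 71.0, 100.3, 32.8 and 81.1 CPM in metastases 1 to 4. All lay above the highest HGA, 18.1 CPM, and the log2FC of HGA relative to the metastases was −3.01 (SE 0.35, adjusted p = 7.43e-05). IL6ST measured 117, 162, 165 and 292 CPM in metastases 1 to 4, again all above HGA (log2FC −1.42, SE 0.28, adjusted p = 0.0112). Metastasis 4 was the highest, and without it the call was lost (log2FC −1.10, adjusted p = 0.109; adjusted p 0.00771 to 0.109 over the 14 fits without a library).

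IL15 measured 15.6, 7.16, 15.1 and 14.7 CPM in metastases 1 to 4, each above all 10 HGA. Its log2FC of −3.37 (SE 0.84) missed the threshold with an adjusted p of 0.0573. It was called by DESeq2 (adjusted p = 0.0116), by library size scaling (adjusted p = 0.0276) and with Benjamini-Hochberg adjustment (adjusted p = 0.00569). It was not called by edgeR without a filter on low counts (adjusted p = 0.0826). IL15 passed the filter through the metastases, since 1 of 10 HGA and 4 of 4 metastases reached the level asked of 4 libraries. It could thus enter this test only by being higher there. Without HGA 7, the HGA with the most IL15, the adjusted p was 0.0199, and over the 14 fits without a library it ran from 0.0199 to 0.194. With IL6R and IL6ST, IL15 made 3 genes that were lower in HGA without overlap, as were 8.72% of all genes tested. CSF1 measured 19.5, 62.3, 29.3 and 39.3 CPM, with metastasis 1 inside the HGA range, and was not called (log2FC −1.56, SE 0.52, adjusted p = 0.307).

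IL34 measured 16.5, 43.0, 6.43 and 21.7 CPM and OSMR 4.87, 33.4, 6.43 and 11.5 CPM in metastases 1 to 4. Both spread around the HGA values, with a log2FC of 0.19 (SE 0.44) for IL34 and 0.03 (SE 0.46) for OSMR. IL15RA measured 11.4, 10.6, 4.82 and 7.67 CPM (log2FC −0.51, SE 0.75). LIF could be tested here, through HGA, and measured 0, 1.06, 2.25 and 0 CPM in the metastases (log2FC 2.18, SE 1.05, adjusted p = 1). IL6 measured 0, 8.49, 0.965 and 1.60 CPM. It did not reach the filter, and without one its adjusted p was 0.0376, on 32 counts in metastasis 2 and 0, 3 and 5 in the other metastases. IL7 measured 0.973, 1.06, 1.61 and 2.56 CPM and was not tested. Of the partner lists, 2 of 9 JAK and STAT genes tested were called higher in HGA and 1 lower, 1 of 14 feedback and target genes higher and 2 lower, 1 of 5 genes of the list with CSF1R higher, and 0 of the 5 gp130 and 4 common gamma chain genes. SDC1 (log2FC 5.18), STAT5A (2.50), CEBPB (2.43) and JAK2 (2.19) were called higher in HGA and PIM1 (−3.64) and STAT2 (−1.63) lower. PIM1 again passed the filter through the metastases alone, and without a filter its adjusted p was 0.0261. The JAK2 call (adjusted p = 0.0497) was also lost by RLE or library size scaling (log2FC 2.15 and 1.89), and it was lost without any of the 4 metastases or any of HGA 3 to 8, and the PIM1 call without metastasis 1 or 4 (adjusted p up to 0.222 and 0.0660). LIFR was not called (log2FC −2.11, adjusted p = 0.0576), though it was without HGA 2 or HGA 9 (adjusted p 0.0377 to 0.211 over the fits without a library).

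Between the metastases and the primary tumors of the same 4 dogs, 0 of the 10 genes were called, as were 0% of the 12629 genes tested with edgeR, where 145 genes had an unadjusted p under 0.05. This fit ignored the pairing by dog, and the log2FC and SE values given for these tissues come from it. With 4 dogs, the absence of calls does not show that the tissues are alike. With the dog as a block, 491 genes had an unadjusted p under 0.05 and 1 gene was called. DESeq2 called 5 genes, and none of the genes called in these fits was among the 10, while 0 genes of the 5 partner lists were called by edgeR. IL6R had means of 71.3 ± 28.4 CPM in metastases and 71.3 ± 16.7 CPM in the primary tumors (SD, n = 4 each), with a log2FC of metastasis relative to primary of 0.01 (SE 0.33). CSF1 stayed closest to its own dog, with differences of −0.09 to 0.19 on the log2 scale in the 4 dogs, and dog 2 had the highest value in both tissues. IL6ST was lower in the metastasis in 3 of 4 dogs (log2FC −0.36, SE 0.40). IL15 was higher in the metastasis in 3 of 4 dogs, but in dog 4 it was lower, at 14.7 against 23.9 CPM (log2FC −0.06, SE 0.51).

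Of the 7 cytokine and receptor genes tested between these tissues, IL15RA had the largest fitted difference, a log2FC of 0.72 (SE 0.56, adjusted p = 1), and was higher in 3 of 4 metastases. IL34 was lower in 3 of 4 (log2FC −0.12, SE 0.53). OSMR was higher in 2 of 4, and its changes ran from −1.09 to 1.23 on the log2 scale (log2FC 0.33, SE 0.77). IL6 was higher in CPM in 3 of 4 metastases and at 0 in both tissues of dog 1. In dog 2 IL6 went from 0 counts in the primary tumor to 32 in the metastasis. In dog 3 it had 3 counts in both tissues, and in dog 4 it had 4 in the primary tumor and 5 in the metastasis. IL7 was higher in 3 of 4 metastases, on 3 to 8 counts in each of the 4. LIF went up in dogs 2 and 3 and down in dogs 1 and 4. A metastasis lies in a lymph node. The sums of 3 lists of lymphocyte and stroma markers were higher in the metastasis than in the primary tumor in 4 of 4 dogs. The T cell and NK cell sum was 25.9, 32.4, 21.6 and 44.2 CPM in the primary tumors of dogs 1 to 4 and 43.8, 45.9, 66.6 and 45.7 CPM in their metastases. The B cell sum was 13.6 to 41.3 CPM in these primary tumors and 21.2 to 41.9 CPM in the metastases, and the sum of the lymph node stroma markers in the table (3 of 4 listed) was 1.48 to 8.17 CPM and 3.24 to 14.5 CPM. These sums were not particular to the metastases. In HGA the stroma sum ran from 11.2 to 135 CPM and the B cell sum reached 65.7 CPM. Among all primary AGASAC the stroma sum reached 24.5 CPM, in AGASAC 6, and the T cell and NK cell sum 121 CPM, in AGASAC 7. The skeletal muscle sum was lower in the metastasis in 4 of 4 dogs, at 15.1 to 389 CPM in the primary tumors and 1.86 to 3.22 CPM in the metastases. No marker of these 4 lists was called between the metastases and the matched primary tumors. The part of lymph node or muscle cells in these values was not tested.

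**Figure D5:**
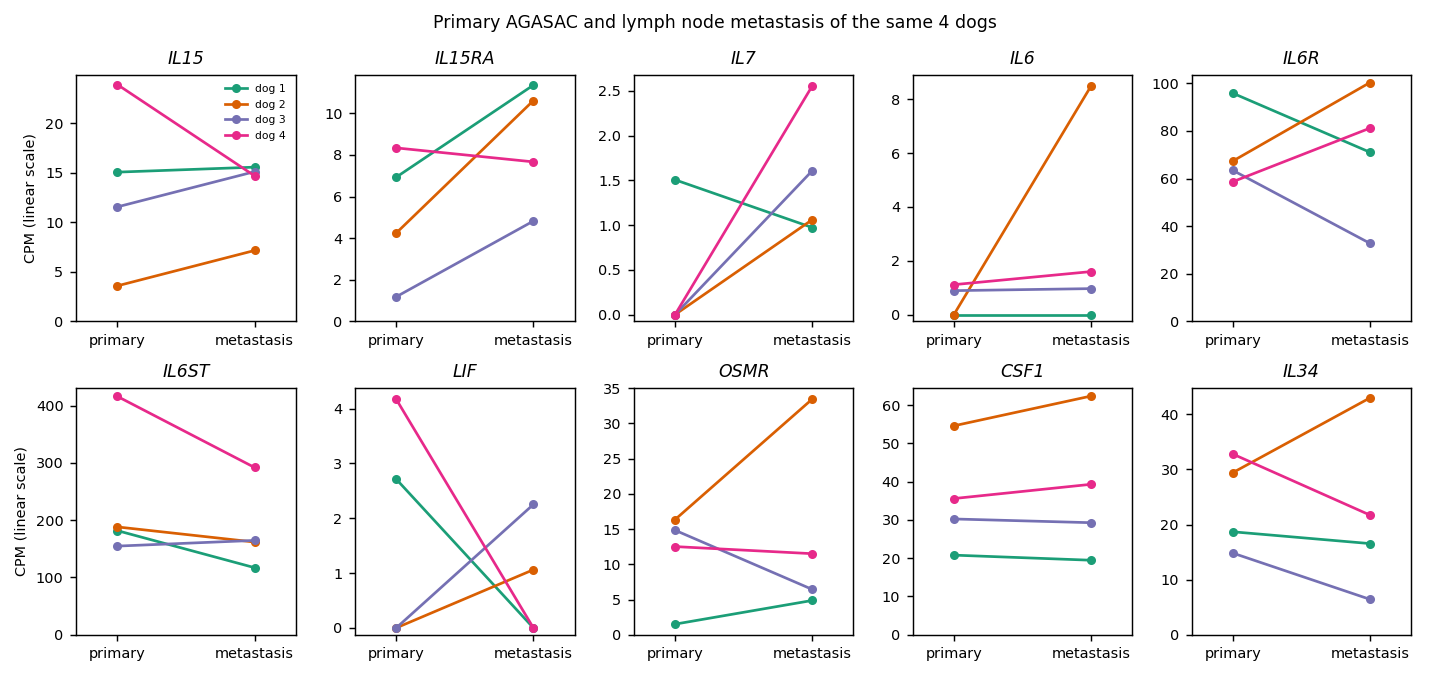
CPM (linear vertical axis, a separate scale for each gene) of the 10 genes in the primary AGASAC and the lymph node metastasis of dogs 1 to 4, with a line for each dog. The lines of CSF1 run nearly flat, and those of IL6R and OSMR cross. IL6 is detected above 3 counts in the metastases of dogs 2 and 4 and in the primary tumor of dog 4.

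Metastasis 2 had the highest value of the 4 metastases for IL6, IL6R, IL34, CSF1 and OSMR, 5 of the 10 genes, and the lowest for IL15. It also had the highest fibroblast marker sum of the metastases, 12899 CPM against a median of 2152 CPM, and their highest macrophage sum, 432 CPM against a median of 194 CPM. Whether these cells contributed to its cytokine values was not tested.

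The 10 genes varied by different amounts among tumors of a type. In primary AGASAC the coefficient of variation (CV) was 33.3% for IL34, 41.1% for CSF1, 44.4% for OSMR, 52.8% for IL6R, 56.1% for IL15, 63.4% for IL6ST and 66.6% for IL15RA. For the genes with too few counts to be tested it was 117% for LIF, 153% for IL6 and 178% for IL7. In HGA it was 30.8% for IL6ST and 35.7% for OSMR, and 146% for IL15, with 5 of 10 libraries at 0. The IL6ST value in AGASAC rested on AGASAC 5: without it the CV was 45.7%, below 59.5% for IL15 and 55.9% for IL6R over the same 10 libraries. The IL15RA value rested on AGASAC 7: without it the CV was 45.3%, below 51.0% for IL15 and 51.7% for IL6R. That of OSMR was 31.7% without AGASAC 1, so the order of these genes depends on single libraries.

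Similarity of pattern over the 21 primary tumors, with the mean of each tumor type subtracted, is given as a description. The tumors share extraction batches and depth differences, and the genes closest in pattern were picked from all genes tested. IL6R lay closest to LXN (r = 0.796), ETV1 (r = 0.757) and ANKH (r = 0.747). IL6ST lay closest to RAB8B (r = 0.796), MYCT1 and PER3, and IL15 to PREX2 (r = 0.695), DPP4 and ATP2A3. Among the genes closest to CSF1 were WDR59 (r = 0.845) and PARP6 (r = 0.838). IL34 lay closest to MAP7D1 (r = 0.821), INPP5D (r = 0.815) and CD86 (r = 0.796), the last being a costimulatory molecule of antigen-presenting cells. OSMR lay closest to ALDH3A2 (r = 0.768), BGN and ADCY6, and IL15RA to MTCH2 (r = 0.746), ARHGDIA and CAMTA2. Between pairs of the 7 genes themselves the correlations were weaker, from −0.264 for IL15 and OSMR to 0.468 for IL6ST and CSF1.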

How the data were processed

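RNA from 25 canine FFPE tumors was sequenced with QuantSeq 3′. The authors trimmed reads with Cutadapt, aligned them to CanFam3.1 with STAR, and counted them per gene in 2 rounds of featureCounts, the second with a 2 kb 3′ extension (versions not given in the sources used here). They deposited raw counts, with multi-mapped reads split evenly, so closely related genes may share reads. The deposited table also holds counts normalized by size factors (a signal) and the log2 fold changes, their errors and p-values of the authors' own comparison, none of which were used here. All 10 genes were matched by symbol, and 0 per-sample columns were left unmapped. No coordinates or sequences are given, since the gene table at hand is of another assembly.

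Counts were tested in R 4.3.3 with edgeR 4.0.16: filterByExpr (minimum count 10, total 15), TMM, the quasi-likelihood test without covariates on the groups compared, and Benjamini-Yekutieli adjustment over all genes tested. The SE given with a log2FC was derived from this test, as the absolute log2FC divided by the square root of the F statistic. Samples were grouped by their labels. Metastasis and primary tumor of a dog share the animal, and their deviations from the group means correlated at 0.730, 0.517, 0.572 and 0.428 across genes in dogs 1 to 4. No 2 libraries of the same group agreed within sampling noise, and pairs from different groups were not compared in this way. Each tumor is another dog, apart from the metastases. The named genes were the 10 members, the fixed partners of their receptors, the 2 listed genes with the largest called change per list, and the 3 genes nearest in pattern (Pearson's r of log2(CPM + 1)). STAT2, SOCS1, IL2RA and CNTFR were named after their values were seen. Some genes that these rules select are not reported here. The members, lists and tests were chosen with earlier results of these data known. Alternatives were other scalings and filters, DESeq2 1.42.0, Benjamini-Hochberg adjustment, batch terms, within-batch fits, other sample sets and leaving out each library.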

Additional observations from a re-analysis of the deposited data

Results flagged for a closer look

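In groups of 4 to 10 libraries, 20 groups of values of the 10 genes were checked for a library far from the others by Dixon's 95% limit, and 3 passed it. By chance about 1 of 20 groups passes this limit where values are normally distributed. That rate does not hold for sparse counts with several libraries at 0, as for IL7 and IL6 in HGA, so the number passed is not set against it. IL15 in metastasis 2 was 7.16 CPM, on 27 counts, while the other 3 metastases lay between 14.7 and 15.6 CPM; the primary tumor of the same dog, at 3.59 CPM, was the lowest of the 4 matched primary tumors. IL7 in HGA 5 was 3.24 CPM, on 6 counts, while the other 9 HGA lay between 0 and 1.72 CPM. IL6 in HGA 1 was 0.362 CPM, on 2 counts, while the other 9 HGA were at 0, and HGA 1 is the deepest library. With the others all at 0, any count in HGA 1 would have passed the limit.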

How the results depend on the processing

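Of 516 values of log2FC of the 10 genes under alternatives, 434 kept their direction and their side of the threshold, 21 lost the call, 5 gained it and 56 changed sign, all of these in comparisons where the gene was not called. Of 690 such values of the partner genes, 581 kept both, 96 lost the call, 5 gained it and 8 changed sign. The 4 genes called in HGA versus AGASAC stayed lower in HGA in every alternative that tested them. These alternatives share their libraries with the main fit. In that comparison 1452 of 7410 genes tested and 1 of the 10 (IL6ST) were called when 10 counts were asked in every sample, since IL15, IL6R and CSF1 then left the test. With naming series as a term, 2009 of 11811 genes tested and 2 of the 10 were called. That fit also left out AGASAC 4, whose series is not known, which by itself took IL15 out of the test, and CSF1 had an adjusted p of 0.164 (0.000158 to 1 over its alternatives other than leave-one-out); the cause of the CSF1 loss was not tested. With 2 to 3 libraries per tumor, 262, 637 and 338 genes and 0, 0 and 0 of the 10 were called within batches 5, 6 and 8. The shares of all genes tested were 2.12%, 4.84% and 2.46%. Within naming series A, 16.1% of all genes tested and 2 of the 10 were called. DESeq2 called 4494 of 24332 genes tested and Benjamini-Hochberg adjustment 3725 of 12070, and the same number of the 10, 4. Library size alone moved the median log2FC of all genes from −0.03 to −0.33 and the split of calls from 1523 higher and 1509 lower to 1053 and 2156, and in HGA relative to metastases from 1109 and 1015 to 788 and 1383. For the metastases and matched primary tumors, DESeq2 called 5 genes and the fit with the dog as a block 1 gene. The block changed no call of the 10 genes. For the metastases and HGA, DESeq2 called 3211 of 23466 genes tested and library size scaling 2171 of 13195, each with 3 of the 10 (IL15 joining). Benjamini-Hochberg adjustment called 3536 of 13195 genes tested and 4 of the 10 (CSF1 at 0.0305 and IL15 at 0.00569 joining). Within batches 5 and 8, 0 and 0 genes were called, with 0 and 0 of the 10. Without single libraries 1 to 3 of the 10 were called between metastases and HGA. It was 1 without metastasis 4 (1602 of 13473 genes tested called) and 3 without HGA 7 (1914 of 12988).

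The changes of sign were as follows. SOCS1, which was called over all samples, became −0.0327 within batch 6, and the other genes were not called over all samples. In HGA versus AGASAC, IL15RA became 0.0018 with batch as a term, 0.0151 with naming series as a term, 0.193 and 0.0754 within batches 5 and 8 and 0.7004 within series A. IL34 became 0.0106 with all 15 AGASAC samples, 0.0579 with naming series, 0.3155 within series A and 0.0192 without AGASAC 2, 4 and 5. OSMR became 0.2487 with naming series, 0.0355 and 0.0565 within batches 5 and 8 and 0.3917 within series A. CSF1R became 0.0622 within series A, JAK1 0.1033 and 0.157 within batches 5 and 6, TYK2 0.2027 with naming series and 0.3158 within batch 8 and STAT3 0.0676 with naming series and 0.0299 within series A. In metastases versus matched primary tumors, the block gave 0.1176 for IL15 and −0.0756 for IL6R, and all 11 primary tumors gave 0.1812 for IL15, −0.0421 for CSF1 and −0.1311 for OSMR. In HGA relative to metastases, IL15RA became 0.5779 within batch 5, IL34 −0.1027 by library size and −0.914 within batch 8, and OSMR −0.0126 by RLE, −0.2775 by library size, −0.0156 by DESeq2, −0.8187 within batch 8 and −0.1304 without HGA 4 and HGA 10. Leaving out single libraries gave, in HGA versus AGASAC, −0.2529 to 0.1986 for IL15RA, −0.173 to 0.0387 for IL34 and −0.2269 to 0.0356 for OSMR. Between the matched tissues it gave −0.3688 to 0.384 for IL15, −0.2182 to 0.246 for IL6R, −0.6812 to 0.0863 for IL6ST, −0.697 to 0.1863 for IL34, −0.2749 to 0.3928 for CSF1 and −0.579 to 0.6214 for OSMR, and in HGA relative to metastases −0.1174 to 0.7526 for IL34 and −0.2577 to 0.9232 for OSMR. IL6, IL7 and LIF are limited by depth, with medians of 0 to 10 counts.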
